A study of Homo sapiens with 3 samples.

Results

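The promoter contacts of 6 transcription factor genes of the developing heart, *MESP1*, *MESP2*, *ISL1*, *NKX2-5*, *HAND1* and *HAND2*, were examined in cardiomyocytes made from a human embryonic stem cell line (hESC-CMs). For each gene, the promoter fragment was the HindIII fragment that the deposited calls list as a promoter end and that holds an annotated transcript start of the gene, and every call with this fragment at either end was taken. Each gene had 1 such fragment, so there were 6 of the 19075 promoter fragments with a call, and 6 of the 15515 protein-coding genes with a start in one of those fragments. In promoter capture Hi-C (PCHi-C), chromatin is crosslinked, digested with HindIII and religated, and ligation products with a promoter fragment are captured, so that each contact joins a promoter fragment to a promoter-interacting region (PIR). There were 3 biological replicates, all made from passage 32 of 1 line, WA09 (H9), with no genetic change and with enrichment in lactate medium lacking glucose. The labels give a purity of at least 80 to 90% by the markers MYH7 and TNNT2, and contact calls hold no expression level by which this could be checked. With 1 group and no other condition, the genes are described and set beside all promoters, and no test between groups was made.

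These factors act in sequence during heart formation. MESP1 and MESP2 are basic helix-loop-helix (bHLH) factors, of which MESP1 marks the earliest cardiac mesoderm and MESP2 is best known for the segmentation of somites. ISL1 is a LIM-homeodomain factor of the second heart field progenitors and is lowered as they become cardiomyocytes, NKX2-5 is the homeodomain factor that heart muscle cells keep, and HAND1 and HAND2 are bHLH factors of the ventricles, the outflow tract and the limb and neural crest. Such genes are commonly controlled by enhancers far from their promoters, which is why their long-range contacts are of interest.

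The sequences below are of PIRs that scored highest for *HAND2*, *HAND1*, *ISL1* and *MESP1*, shown as the first 300 bases of the fragment, and of 2 short PIRs of *HAND1* and *ISL1*, shown whole. All are GRCh37, + strand, 5′ to 3′. Capitals mark matches to the NKX2-5 motif TNAAGTG, on the other strand read as CACTTNA, to the GATA motif GATAA, on the other strand TTATC, and to the E-box CATCTG, on the other strand CAGATG, which is of the kind bound by bHLH factors.
HAND2, chr4:174910062-174910361: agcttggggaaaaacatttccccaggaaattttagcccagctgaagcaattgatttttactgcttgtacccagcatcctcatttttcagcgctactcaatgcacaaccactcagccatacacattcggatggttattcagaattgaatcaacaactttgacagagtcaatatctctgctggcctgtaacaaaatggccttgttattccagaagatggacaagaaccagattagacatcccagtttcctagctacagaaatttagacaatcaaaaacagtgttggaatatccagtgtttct
HAND1, chr5:153986011-153986310: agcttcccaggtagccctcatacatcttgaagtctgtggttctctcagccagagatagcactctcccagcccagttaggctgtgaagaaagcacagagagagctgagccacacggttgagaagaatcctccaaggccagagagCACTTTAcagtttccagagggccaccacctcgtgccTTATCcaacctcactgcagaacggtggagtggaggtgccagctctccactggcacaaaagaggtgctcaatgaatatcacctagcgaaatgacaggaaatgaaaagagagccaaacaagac
HAND1, chr5:151153750-151154046: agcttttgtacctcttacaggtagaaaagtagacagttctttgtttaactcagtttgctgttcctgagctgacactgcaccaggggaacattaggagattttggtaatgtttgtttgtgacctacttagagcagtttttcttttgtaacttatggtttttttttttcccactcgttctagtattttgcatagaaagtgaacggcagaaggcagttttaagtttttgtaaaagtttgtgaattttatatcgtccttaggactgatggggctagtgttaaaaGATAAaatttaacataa
ISL1, chr5:50255127-50255426: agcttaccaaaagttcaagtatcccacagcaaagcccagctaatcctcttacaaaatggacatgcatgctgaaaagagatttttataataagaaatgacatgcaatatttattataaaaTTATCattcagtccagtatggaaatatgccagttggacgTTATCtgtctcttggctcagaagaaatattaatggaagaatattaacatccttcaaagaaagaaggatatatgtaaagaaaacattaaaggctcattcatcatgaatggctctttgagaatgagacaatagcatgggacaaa
ISL1, chr5:50266914-50267122: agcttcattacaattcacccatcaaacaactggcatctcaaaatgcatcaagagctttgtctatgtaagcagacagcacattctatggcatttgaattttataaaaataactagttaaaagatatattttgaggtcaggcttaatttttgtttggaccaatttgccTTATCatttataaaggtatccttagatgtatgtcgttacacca
MESP1, chr15:90418347-90418646: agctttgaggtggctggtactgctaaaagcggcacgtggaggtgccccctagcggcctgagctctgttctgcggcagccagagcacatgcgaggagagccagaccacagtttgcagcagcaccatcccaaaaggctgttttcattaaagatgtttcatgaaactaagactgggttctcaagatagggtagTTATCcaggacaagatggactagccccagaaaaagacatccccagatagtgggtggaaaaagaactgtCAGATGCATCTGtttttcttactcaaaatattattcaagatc
Each sequence opens at the HindIII cut. The stretch contacted by *HAND2* held none of the 3 motifs in these 300 bases, although the whole fragment of 1221 bp held 6 GATA and 1 NKX2-5 matches, that of *HAND1* upstream of the gene held 1 NKX2-5 and 1 GATA match, and that of *MESP1* held 1 GATA match and 2 adjoining E-boxes. Among the first 300 bases of 16471 PIRs on chromosomes 4, 5 and 15, 20.0% held the NKX2-5 motif, 49.6% the GATA motif and 18.7% the E-box, so single matches of this kind were common and describe the letters alone.

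A contact is a pair of fragments with a CHiCAGO score, which grows with the excess of read pairs over a background for that distance and for technical noise. The lowest score in the calls was 5, so a contact missing from a replicate scored under 5 or was not there, and the calls do not tell these apart. The replicates held 112473, 109731 and 110740 calls with median scores of 6.63, 6.64 and 6.65, so they were of like size, while the read depth behind them is unknown here and no interval from counts is given. Over the 3 replicates, the 6 promoter fragments had 197 distinct contacts, of which 123, 141 and 111 were called in replicates 1, 2 and 3 (125 ± 15.1, SD, n = 3). Contacts called in all 3 replicates numbered 70, or 35.5% of the 197, against 24.0% of the 200587 contacts of all promoter fragments. Of the 70, 44 were of *HAND2* and 14 of *ISL1*. The share was above 24.0% for *HAND2*, *ISL1* and *MESP1*, and below it for *HAND1* (14.6%), *NKX2-5* (14.3%) and *MESP2* (0). Over contacts of at most 1 Mb the share was 43.3% for the 6 genes and 34.0% for all promoters. At least 1 contact in all 3 replicates was found for 5 of the 6 promoter fragments, all but that of *MESP2*, against 51.9% of all promoter fragments. This comparison was not matched for the number of contacts, which was 6 for the median promoter fragment. Contacts of 1 promoter share the reads of 1 captured fragment, so these shares are descriptions.

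The genes differed widely in how many contacts their promoters made. *HAND2* was called in 74, 86 and 50 contacts in replicates 1, 2 and 3 (70 ± 18.3, SD, n = 3), and its 100 distinct contacts were more than those of 99.5% of all promoter fragments. *ISL1* had 21, 19 and 26 contacts (22 ± 3.61) and *HAND1* 14, 25 and 20 (19.7 ± 5.51). The ranges of *ISL1* and *HAND1* overlapped, so these 2 genes could not be ordered, whereas every replicate of *HAND2* lay above every replicate of both. *MESP1* followed with 8, 8 and 11 contacts (9.0 ± 1.73), below both of them in every replicate. *NKX2-5* had 5, 1 and 4 (3.33 ± 2.08) and *MESP2* 1, 2 and 0 (1.0 ± 1.0), and their ranges overlapped. The median promoter fragment had 6 distinct contacts, close to the 7 of *NKX2-5* and above the 3 of *MESP2*.

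**Figure D1:**
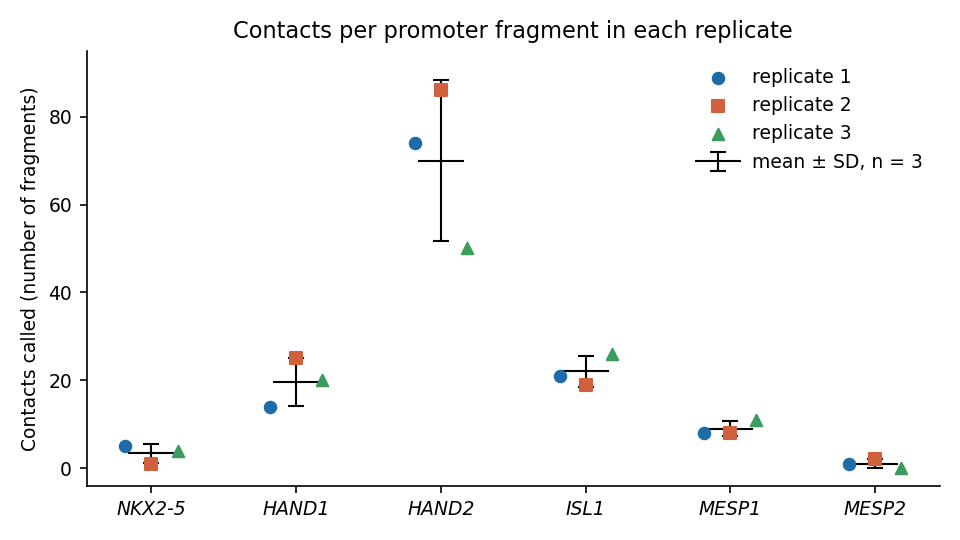
Number of contacts called (y axis) for the promoter fragment of each gene (x axis), with 1 point per replicate and the mean ± SD over 3 replicates as a bar. The points of *HAND2*, at 50 to 86, sit above those of the other genes, and those of *ISL1* and *HAND1* overlap.

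Genes with more contacts mostly had a higher share in all 3 replicates, and *HAND1* was the main exception. Of the 100 contacts of *HAND2*, 44 recurred in all 3 replicates, 22 were called in 2 and 34 in 1. *ISL1*, with fewer contacts, had a like share, with 14 of 30 (46.7%) in all 3 replicates, 8 in 2 and 8 in 1. *HAND1* had 41 distinct contacts, of which 6 (14.6%) recurred in every replicate, 6 had a call in 2 replicates and 29 in 1. For *MESP1* the split was 5, 1 and 10 of 16, for *NKX2-5* it was 1, 1 and 5 of 7, and all 3 contacts of *MESP2* were in 1 replicate each.

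**Figure D2:**
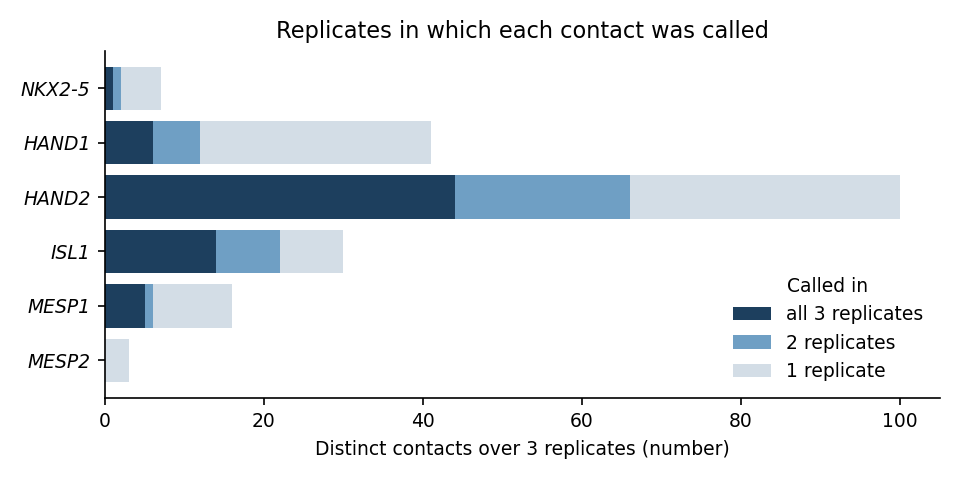
Distinct contacts of each promoter fragment (x axis, number), divided by shade into those called in all 3 replicates, in 2 and in 1. *HAND2* and *ISL1* have close to equal shares in all 3 replicates (44% and 46.7%), while 29 of the 41 *HAND1* contacts were called in 1 replicate.

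Part of the contacts that did not recur lay close to calls in the other replicates, which need not recur themselves. When a contact was also counted as recurring if each other replicate had one within 5 kb, the share in all 3 replicates rose to 77% for *HAND2*, 76.7% for *ISL1*, 50% for *MESP1* and 41.5% for *HAND1*, stayed at 14.3% for *NKX2-5* and at 0 for *MESP2*, and was 47.8% over all promoters. Merged over gaps of up to 10 kb, the 197 contacts formed 54 regions. All 3 replicates called 20 of them, 2 replicates called 8, and 26 rested on 1 replicate. The 20 comprised 7 of the 13 regions of *HAND2*, 6 of the 17 of *HAND1*, 4 of the 8 of *ISL1*, 2 of the 7 of *MESP1* and 1 of the 7 of *NKX2-5*. A region can be called in all 3 replicates through different fragments, so these counts are wider than those of single contacts. Regions were not formed for other promoters, so the counts of regions have no background here.

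The direction of the contacts also differed between genes. *HAND2* reached almost entirely to 1 side, with 99 contacts upstream and 1 downstream, and all 13 same-chromosome contacts of *MESP1* were upstream, while *ISL1* had 10 upstream and 20 downstream and *HAND1* 13 and 28. Among the 2998 promoter fragments with 20 or more same-chromosome contacts, 35.4% had all of them on 1 side. *HAND2*, with its 1 downstream contact, was not among these, and *MESP1*, with 13 contacts, was below the limit of 20. Of the same 2998 fragments, 73.0% had no contact within 100 kb in the replicate calls, as was true of *HAND2*, *HAND1* and *ISL1*. The median distance of the same-chromosome contacts was 584 kb over the 6 genes and 716 kb over all promoters. By gene it was 97.3 kb for *MESP2*, 128 kb for *MESP1*, 276 kb for *NKX2-5*, 584 kb for *HAND2*, 796 kb for *ISL1* and 2658 kb for *HAND1*. The nearest protein-coding start to the PIR was that of the gene itself for 18 contacts of *HAND2* and 5 of *ISL1*, and was that of another gene for the remaining 169 same-chromosome contacts. Over all protein-coding promoter fragments, 93.8% of same-chromosome contacts were nearest to the start of another gene.

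*MESP1* contacted an intron of its distant neighbour *AP3S2*, and *MESP2* touched the same place more weakly. The *MESP1* promoter fragment (chr15:90287776-90295039, 7264 bp, − strand) had 4 contacts called in all 3 replicates in 1 block of 3.89 kb, chr15:90416025-90419916, which lies 125 to 128 kb upstream, past *MESP2* and *ANPEP*, in introns of *AP3S2*, a subunit gene of the AP-3 adaptor complex. Within it, chr15:90418347-90419090 scored 9.91, 9.15 and 10.47 in replicates 1, 2 and 3 (9.84 ± 0.663, SD, n = 3) and its neighbour chr15:90417694-90418346 scored 9.10, 9.38 and 9.91 (9.46 ± 0.411). The flanking fragment chr15:90419091-90419916 scored 8.80, 9.05 and 8.25 (8.70 ± 0.409). The scores of these 3 fragments lay within a narrow span in all replicates, and the fourth, chr15:90416025-90417693, was lower in each, at 7.59, 7.91 and 7.05. The fifth recurring contact, chr15:90629109-90629491, lay 338 kb upstream in an intron of *IDH2*, which encodes a mitochondrial isocitrate dehydrogenase, and scored 6.24, 5.52 and 5.59. The other 11 contacts of *MESP1* included 3 to other chromosomes, each in 1 replicate at 6.21 to 7.07.

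*MESP2* had 3 contacts from its promoter fragment chr15:90319321-90322216 (2896 bp, + strand), the shortest of the 6. In replicate 2 these were chr15:90417694-90418346 at 5.33 and chr15:90418347-90419090 at 6.75, both 97.3 to 98.0 kb downstream and both among the recurring PIRs of *MESP1*. In replicate 1 the contact was the promoter fragment of *ANPEP*, the gene of aminopeptidase N, at 5.29 and 39.1 kb, and replicate 3 had none. No other PIR was shared between any pair of the 6 genes in the replicate calls, and no contact joined 2 of their promoter fragments. In the calls that the authors made from the merged replicates, *MESP1* and *MESP2* shared 6 fragments of the *AP3S2* introns, each with the higher score for *MESP1*, 7.71 to 16.72 against 5.34 to 7.72. The 2 promoter fragments have a stretch of 328 bp that is 88.1% identical, and the part of this likeness in the shared calls was not tested. A further fragment with *MESP2* starts, chr15:90298696-90305424, appeared only as a PIR, with 1 call in replicate 1, none in replicate 2 and 1 in replicate 3.

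**Figure D3:**
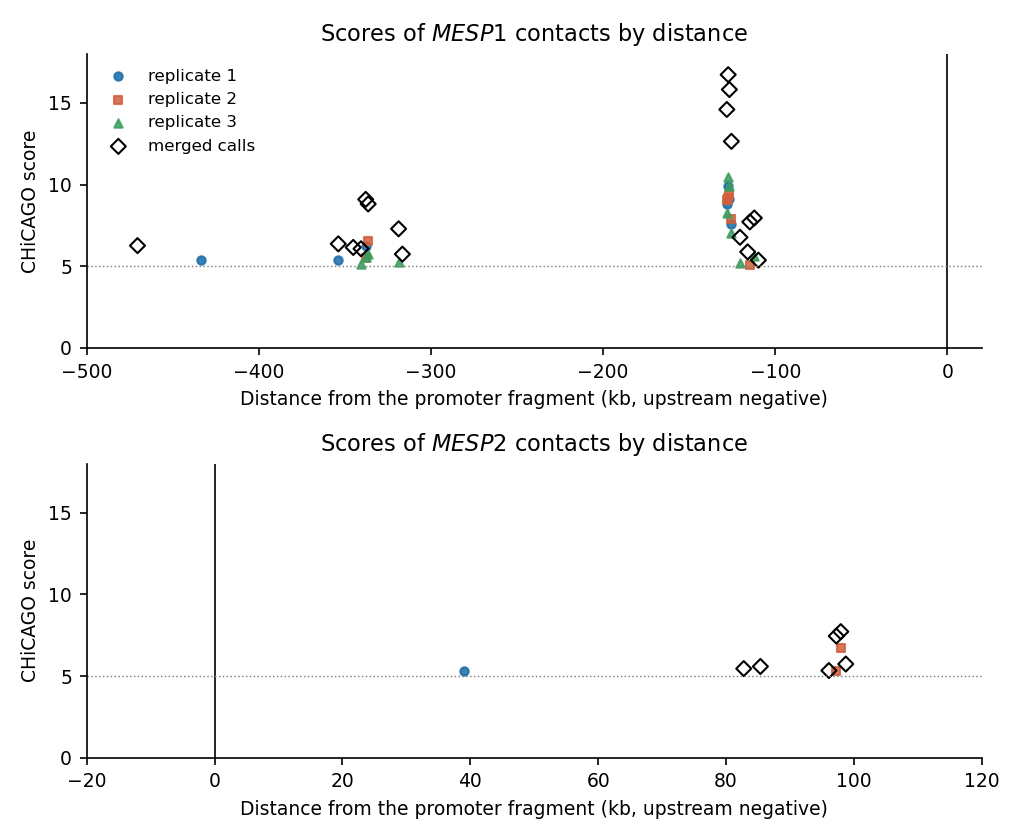
CHiCAGO score (y axis) of each contact of *MESP1* (top) and *MESP2* (bottom) by distance from the promoter fragment (x axis, kb, upstream negative), for the 3 replicates and the merged calls; the dotted line is the lowest score listed, and 3 *MESP1* contacts on other chromosomes are not drawn. The *AP3S2* block stands at −125 to −128 kb from *MESP1* and at 96.1 to 98.7 kb from *MESP2*, with merged scores up to 16.72 and 7.72.

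*ISL1* contacted both sides, and its recurring PIRs lay in 4 regions and overlapped no protein-coding gene. Its promoter fragment, chr5:50677953-50684008 (6056 bp, + strand), also holds the start of the divergent transcript *ISL1-DT*. Of its 30 PIRs, 24 were intergenic and 5 overlapped non-coding genes only, against 28.2% and 15.3% of 120857 PIRs of all promoters. No protein-coding gene lay between the promoter and the PIR for 29 of the 30 contacts. This was not counted over all promoters, so it describes the locus and has no background here.

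The strongest *ISL1* contacts were upstream. Of the recurring contacts, 8 formed a block at chr5:50255127-50276029, 405 to 424 kb upstream and nearest to the start of *PARP8*, which encodes an ADP-ribosyltransferase family member. The first fragment of the block, chr5:50255127-50259366, whose opening bases are printed above, scored 20.96, 18.53 and 18.11 (19.2 ± 1.54, SD, n = 3). The next, chr5:50259367-50262102, scored 21.04, 15.26 and 21.23 (19.2 ± 3.39). From these first 2 fragments to the last of the block, scores fell in every replicate, though not at each step. The third fragment, chr5:50262103-50262600, scored 13.51, 10.73 and 10.61, and the last, chr5:50274978-50276029, 5.77, 5.6 and 5.41. Between these, the 209 bp fragment printed above scored 9.66, 10.62 and 10.91. The fragments on both sides of it scored lower in replicates 1 and 3. In replicate 2, the fragment before it scored 10.59 and the fragment after it was not called.

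Downstream, 6 contacts of *ISL1* were called in all 3 replicates. Of these, 3 adjoining fragments at chr5:51293616-51312465 lay 613 to 624 kb away, led by chr5:51294748-51297554 with 17.38, 13.53 and 14.40 (15.1 ± 2.02). The third of them is the promoter fragment of the non-coding gene *LINC02118*, at 5.79, 5.30 and 6.81. At 1175 to 1176 kb a pair of fragments recurred, of which chr5:51856797-51857274 scored 8.79, 10.97 and 13.07 and chr5:51854942-51856796 scored 6.87, 13.99 and 7.73. The farthest recurring contact, chr5:51950864-51954275 at 1272 kb, scored 6.06, 9.96 and 12.97. In these last 2 regions replicate 1 scored lowest for each recurring fragment. In the upstream block its place was mixed. It had the highest score for 3 of the 8 fragments and the lowest for others, such as chr5:50270847-50272255 at 5.52, 6.19 and 5.86. The contact with a protein-coding promoter fragment, that of *ITGA1* and *PELO* at 1403 kb, was called in replicate 3 alone at 8.63.

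*NKX2-5* had few contacts, and 1 of them recurred. Its promoter fragment, chr5:172654355-172663437 (9083 bp, − strand), holds 3 distinct starts of the gene and no other. The recurring PIR was chr5:172377099-172388908, 276 kb downstream, which holds the start of *RPL26L1*, a ribosomal protein-like gene, and part of *ERGIC1*, a gene of transport between endoplasmic reticulum and Golgi. It scored 8.03, 8.48 and 12.33 in replicates 1, 2 and 3 (9.61 ± 2.36, SD, n = 3), with replicate 3 apart from the other 2. In replicate 2 this was the only contact of *NKX2-5*. A fragment in *CREBRF*, a regulator of the CREB3 family, lay 176 kb downstream and scored 7.67 in replicate 1 and 6.8 in replicate 3.

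The remaining 5 contacts of *NKX2-5* were called in 1 replicate each and were not in the merged calls. They were fragments of *DUSP1*, a phosphatase of MAP kinases, at 7.35 and 458 kb, of *BNIP1*, a membrane fusion gene, at 5.36 and 67.3 kb, and of *BOD1*, a chromosome segregation gene, at 5.97 and 385 kb, the last upstream. The other two lay on chromosomes 1 and 3 at 6.11 and 5.45. All 5 same-chromosome PIRs of *NKX2-5* contained exons of protein-coding genes, and 3 of its 7 PIRs were promoter fragments themselves. The *CREBRF* fragment also holds a start of that gene, but the calls do not list it as a promoter end. At a score of at least 10 there was 1 contact, the *RPL26L1* fragment in replicate 3.

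*HAND1* had its strongest contact 129 kb upstream and most of its contacts far away. Its promoter fragment, chr5:153854715-153861547 (6833 bp, − strand), holds 1 start. The top contact was chr5:153986011-153987847, intergenic, 129 kb upstream, whose opening bases are printed above. It scored 18.05, 19.99 and 19.17 (19.1 ± 0.974, SD, n = 3), and the adjoining chr5:153987848-153994292 scored 10.94, 13.54 and 11.36 (11.9 ± 1.40). The fragment on the other side, chr5:153967609-153986010, was called in replicates 2 and 3 at 5.69 and 5.59. It holds the microRNA gene *MIR3141* and overlaps mm849, a VISTA element with enhancer activity in the mouse heart. The list that pairs mm849 with *HAND1* was drawn from these same interactions, so it is not independent of them. The 2 recurring fragments lie beyond mm849, with gaps of 176 and 2013 bp, and do not overlap it. Their nearest protein-coding start was that of *LARP1*, an RNA-binding protein gene.

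Downstream of *HAND1*, contacts ran along *MFAP3*, a microfibril-associated gene. At chr5:153416650-153466747, 392 to 440 kb away, 9 fragments were called, 4, 7 and 5 of them in replicates 1, 2 and 3. Of these, 2 recurred in all 3 replicates, chr5:153449678-153452266 at 8.14, 7.73 and 6.35 (7.41 ± 0.938) and chr5:153435054-153439033 at 6.81, 6.35 and 5.85 (6.34 ± 0.480). Both were highest in replicate 1 and lowest in replicate 3. The fragment that holds the shared promoter of *MFAP3* and *FAM114A2* was called once, in replicate 2 at 5.66.

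The other recurring contacts of *HAND1* were megabases away. The 297 bp fragment printed above, chr5:151153750-151154046, lies in an intron of *G3BP1*, a stress granule gene, 2704 kb downstream, and scored 5.55, 7.49 and 16.12 (9.72 ± 5.63). Its spread was the widest, relative to its mean, of the 6 recurring *HAND1* contacts, and replicate 3 alone lay above 10. The fragment chr5:151904415-151905576, 1953 kb downstream in the non-coding gene ENSG00000286749, scored 10.09, 7.03 and 7.30 (8.14 ± 1.69). At chr5:156690723-156715586, 2834 to 2856 kb upstream in *CYFIP2*, an actin regulator gene, 6 fragments were called, 1, 1 and 4 by replicate, no fragment in more than 1 replicate and none in the merged calls. In all, 28 of the 41 contacts spanned over 1 Mb, against 42.1% of all same-chromosome contacts. Of those 28, 2 recurred in all 3 replicates, and the farthest, at 110831 to 119335 kb, were single calls. Within 1 Mb, 4 of the 13 contacts of *HAND1* recurred (30.8%), against 34.0% over all promoters. The share of recurring contacts beyond 1 Mb was not computed over all promoters.

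**Figure D4:**
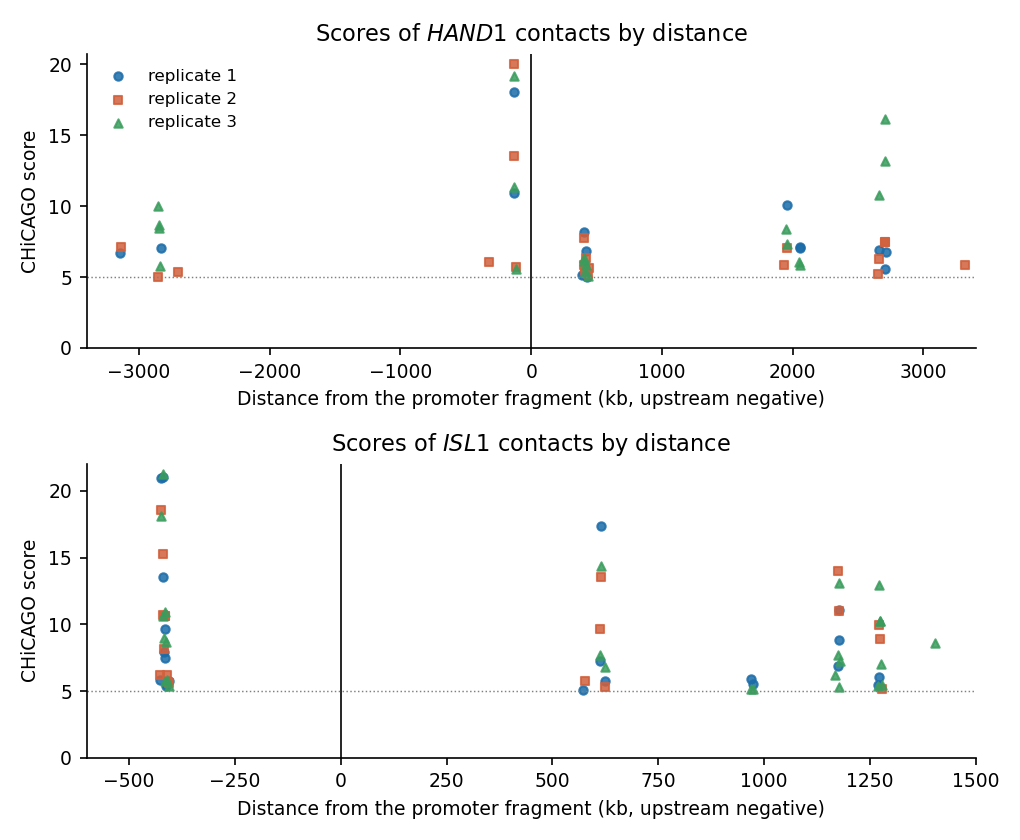
CHiCAGO score (y axis) of each contact of *HAND1* (top) and *ISL1* (bottom) by distance from the promoter fragment (x axis, kb, upstream negative), 1 symbol per replicate; the dotted line is the lowest score listed, and 5 *HAND1* contacts and 1 *ISL1* contact farther away are not drawn. The *HAND1* fragment at −129 kb reaches 18.05 to 19.99 in the 3 replicates, and the *ISL1* scores peak at −424 to −420 kb and again at 615 kb.

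*HAND2* reached far into 1 side of its locus. Its promoter fragment, chr4:174446836-174453685 (6850 bp, − strand), also holds the start of the antisense gene *HAND2-AS1*, so the contacts of either gene cannot be told apart. Of its 100 contacts, 99 were upstream, from 113 to 799 kb, and they covered mainly long non-coding genes. Contacts in all 3 replicates overlapped *LINC02269* in 22 cases, *LINC02268* in 18 and ENSG00000251216 in 10, where a fragment may overlap more than 1 gene. By class, 40 of the 44 recurring PIRs overlapped non-coding genes only. For 82 of the 100 contacts no protein-coding gene lay between the promoter and the PIR, a count not made over all promoters. Yet 31 of the 44 recurring PIRs were nearest to the start of *FBXO8*, an F-box gene at the far end of the interval. Of the others, 10 were nearest to that of *HAND2* and 3 to that of *CEP44*, a centrosome gene.

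The 44 recurring contacts of *HAND2* fell into 7 blocks with fragments called in fewer replicates, or in none, between them. The first, chr4:174658058-174675888, 208 to 222 kb upstream, had 7 fragments, of which chr4:174668125-174669552 scored 30.57, 30.46 and 20.09 (27.0 ± 6.02, SD, n = 3) and the adjoining chr4:174667405-174668124 scored 25.71, 27.06 and 18.59 (23.8 ± 4.55). Weaker blocks of 3 and 4 fragments followed at 299 to 305 kb and 405 to 414 kb, with top means of 7.40 and 8.39. The block at chr4:174898808-174928608, 449 to 476 kb upstream, had 9 fragments and the highest score of the 6 genes. There, chr4:174910062-174911282, whose opening bases are printed above, scored 30.94, 34.61 and 19.98 (28.5 ± 7.61). Its neighbour chr4:174911283-174915841 scored 18.26, 21.40 and 23.54 (21.1 ± 2.66), so the order of these 2 fragments turned in replicate 3.

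The widest block of *HAND2* spanned 57.1 kb at chr4:175030787-175087866, 582 to 634 kb upstream, with 18 recurring fragments. Its leading fragment by mean score, chr4:175074291-175079237, scored 22.12, 27.79 and 23.97 (24.6 ± 2.89), and chr4:175073825-175074290 beside it scored 23.21, 24.95 and 14.99 (21.1 ± 5.32). Mean scores of at least 20 were reached by 6 of the 44 recurring PIRs of *HAND2* and by none of the other 5 genes. *HAND2* also had the most recurring PIRs of the 6 genes. The count was not made over all promoters, so whether it is unusual cannot be said. The last recurring contacts lay near *CEP44*. The fragment that holds the start of both *FBXO8* and *CEP44*, chr4:175202395-175207393 at 755 kb, scored 9.93, 8.18 and 6.04, and chr4:175242614-175243138 at 793 kb scored 13.43, 9.10 and 12.55. The *FBXO8* and *CEP44* fragment and the *RPL26L1* fragment of *NKX2-5* were the 2 protein-coding promoter fragments contacted in all 3 replicates by any of the 6 genes.

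Replicate 3 stood lower for *HAND2*. Over the 44 recurring contacts, the median score was 10.1, 10.7 and 8.72 in replicates 1, 2 and 3, and replicate 3 gave the lowest score in 33 (75%), against 34.3% of the 48209 recurring contacts of all promoters. Of the 22 contacts of *HAND2* called in 2 replicates, 17 were missing in replicate 3. For *ISL1* replicate 3 gave the lowest score in 4 of 14 recurring contacts, for *HAND1* in 2 of 6 and for *MESP1* in 2 of 5. The number of calls over all promoters was 110740 in replicate 3, between those of the other two. Without replicate 3, *HAND2* kept 99 contacts, of which 61 were in both remaining replicates. The part of depth or of differences between the differentiations in this was not tested.

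**Figure D5:**
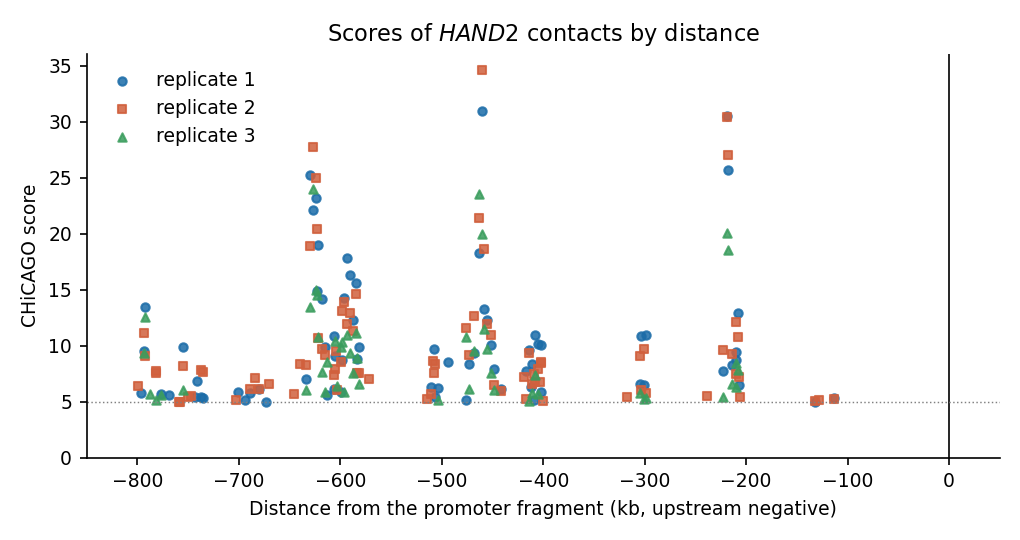
CHiCAGO score (y axis) of each *HAND2* contact by distance from the promoter fragment (x axis, kb, upstream negative), 1 symbol per replicate; the dotted line is the lowest score listed, and 1 contact farther downstream is not drawn. By mean over the replicates, scores peak near −219, −460 and −627 kb, with replicate 3 at 20.09, 19.98 and 23.97 at these leading fragments.

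In the 3 replicates no *HAND2* contact was called within 113 kb upstream, while the merged calls held one at 55.6 kb with a score of 6.06, and the downstream contact, a fragment of *FNIP2* at 14694 kb, was called in replicate 2 alone at 7.96. Between the blocks, 7 fragments at chr4:174943809-174967072 and 8 at chr4:175120463-175152999 were called without any recurring in all 3 replicates. *HAND1* and *HAND2*, which are paralogs, have promoter fragments that share a stretch of 258 bp at 80.6% identity, and lie on chromosomes 5 and 4. Their contact patterns differed in number, reach and repeatability as given above, and as single genes they allow no test of that difference.

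Each gene was compared with the promoters that shared its PIRs. Likeness was the number of shared PIRs over the 3 replicates and the Jaccard index, the shared PIRs as a share of those of either promoter. For *HAND2* these were the promoter fragments of ENSG00000248774 with 28 shared PIRs (Jaccard 0.239), of *HMGB2*, a chromatin protein gene, with 27 (0.243), and of ENSG00000286226 and *RNU6-1096P* with 27 (0.241). The 27 made up 27.0% of the PIRs of *HAND2* and 71.1% of the 38 of *HMGB2*, and 5 of them were called in all 3 replicates for both. For *ISL1* they were *LINC02118* with 12 (0.235), of which 8 recurred for both, *ITGA1* and *PELO* with 10 (0.185) and *RNU6-480P* with 4. For *HAND1* they were *SAP30L* with 12 (0.190), the *MFAP3* and *FAM114A2* fragment with 10 (0.182) and *GALNT10* with 8 (0.136). *NKX2-5* shared 2 with ENSG00000253445, and *MESP1* and *MESP2* shared 2 with each other (0.118). *STOML1*, 16009 kb from *MESP1* and 16039 kb from *MESP2*, shared 1 PIR with either of them, with a Jaccard index of 0.167 for *MESP2*, above that of *MESP1*, and of 0.0526 for *MESP1*.

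As a background from the same network, 32 other cardiac transcription factor genes were counted, among them *GATA4*, *TBX5* and *MEF2C*. Of these, 29 had a contact and 24 of the 29 (82.8%) had one in all 3 replicates, against the 51.9% of all promoter fragments. This comparison was not matched for the number of contacts. The other factors had a median of 25 distinct contacts, against 6 over all promoter fragments. Their highest number was 88, for *MEIS1*, a homeobox gene with 2 promoter fragments, so the 100 of *HAND2* lay above all of them. Contacts in all 3 replicates made up 327 of their 767 (42.6%), a share that *HAND2* and *ISL1* were close to and that *MESP1*, *HAND1*, *NKX2-5* and *MESP2* were below.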

How the data were processed

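PCHi-C was measured in 3 biological replicates of hESC-CMs. The authors used HiCUP to map the reads (hg19/GRCh37) and ran CHiCAGO with its defaults. The deposited score of each pair of fragments was used as given, from a lowest score of 5, for each replicate and for the merged replicates. A contact was 1 unordered pair of fragments, with the higher score where both orders were listed, and the union of the 3 replicates was the main set. Genes were from GENCODE v44 lifted to GRCh37. Distances are between fragment midpoints, SDs between replicates. Counts were tested on simulated data. The 6 genes and the 32 other factors were chosen with earlier results of these data known. Contacts named are, per gene, the 3 with the highest mean score among those in all 3 replicates, contacts or PIRs shared between the genes, recurring protein-coding promoter fragments, up to 3 promoters sharing most PIRs and contacts with VISTA elements. Further contacts that are named, among them whole blocks, regions and calls in 1 or 2 replicates, were chosen after their values were seen. Alternatives were scores of at least 7 and 10, each replicate left out, the merged calls, the promoter end alone, matching within 5 kb, contacts of at most 1 Mb and protein-coding starts; counting both *MESP2* fragments was added after seeing the data. Scripts ran in Python 3.11.15 (pandas 2.3.3, numpy 2.4.6, matplotlib 3.10.9) and likeness of promoter fragments was found with blastn 2.17.0. Read counts were not analysed here.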

Additional observations from a re-analysis of the deposited data

How the results depend on the processing

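The 197 distinct contacts of the 6 promoters became 110 at a score of at least 7 and 54 at a score of at least 10, since a higher minimum keeps fewer, 150 for contacts of at most 1 Mb, and were between 154 and 175 with 1 replicate left out. The share called in all replicates, 35.5%, rose to 64.0% when matched within 5 kb and to 43.3% for contacts of at most 1 Mb, and was between 45.7% and 51.9% over the 2 remaining replicates when 1 was left out, where fewer replicates have to call a contact. The median distance, 584 kb, was 446 kb in the merged calls and 450 kb for contacts of at most 1 Mb, and between 509 kb and 582 kb with 1 replicate left out, lowest without replicate 2. The order of *HAND1* and *ISL1*, 41 against 30 distinct contacts, turned at a score of at least 7 (17 against 18) and of at least 10 (8 against 12), without replicate 2 (27 against 28), in the merged calls (25 against 34) and for contacts of at most 1 Mb (13 against 17). No paired analysis was possible because there is 1 group. The lowest score listed, 5, and the unknown read depth limit what a missing call means.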

Other observations

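At PIRs that a gene shares with a neighbouring promoter, the higher mean score was not always that of the gene described above. *GALNT10*, which encodes a glycosyltransferase, scored above *HAND1* at all 8 shared PIRs, with medians of 8.45 against 5.91, while *HAND1* scored above the *MFAP3* and *FAM114A2* promoter at all 10 PIRs shared with it (8.41 against 6.35). *ISL1* scored above *LINC02118* at 3 of 12 shared PIRs, with a highest mean of 19.2 against 34.2, and *LINC02118* is itself a PIR of *ISL1*. *HAND2* scored higher at 12 of the 28 PIRs shared with ENSG00000248774, at 14 of the 27 shared with *HMGB2*, at 18 of the 27 shared with ENSG00000286226 and *RNU6-1096P* and at 14 of the 26 shared with *SCRG1*. Each mean is over the replicates that called the contact, and these differences were not tested.

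The merged calls held 201 contacts of the 6 promoters, 49 of them in no replicate, and 152 of the 197 replicate contacts. Of the 49, 28 were of *HAND2*, at merged scores of 5.15 to 7.71, and 7 were of *HAND1*, at 5.28 to 6.19, including an intergenic fragment 37.9 kb from the gene, closer than any contact in the replicates. The merged score exceeded all 3 replicate scores for 43 of the 44 recurring contacts of *HAND2*, for all 14 of *ISL1* and all 5 of *MESP1*, for 4 of the 6 of *HAND1* and not for the 1 of *NKX2-5*. Both exceptions of *HAND1* lay over 1 Mb away, at the *G3BP1* and ENSG00000286749 fragments. Of the 29 *HAND1* contacts called in 1 replicate, 7 were in the merged calls, against 23 of 34 for *HAND2* and 7 of 8 for *ISL1*. The merged-call counts of this paragraph were not made over all promoters, so whether they are particular to these genes cannot be said.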
